A study of Mus musculus with 7 samples.

Results

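The type I interferon response genes are a set of 37 genes that cells switch on after type I interferon binds its receptor. They were found by gene symbol in a table of 16156 genes measured by RNA sequencing of CD8 T cells, and all 37 were measured. The cells were congenically marked OT-I cells, whose transgenic T cell receptor recognises an ovalbumin peptide, and were either WT or ACLY KO. ACLY (ATP-citrate lyase) makes cytosolic acetyl-CoA from citrate. C57Bl/6 mice received cells of either genotype by transfer, were infected 1 day later with Listeria monocytogenes carrying ovalbumin (LmOVA), and the transferred cells were recovered 6 days after infection. The WT group held 4 libraries and the KO group 3, all labelled as strain C57Bl/6, and both genotypes had the OT-I receptor, the transfer and the infection. The recipients kept their own immune cells. The labels do not state how Acly was deleted or the age and sex of the mice. The labels do not say whether libraries of 1 genotype came from separate animals, so p-values measure only the spread between these libraries. The comparison asked whether interferon response genes differed between ACLY KO and WT cells, and which of them were high only in KO replicate 1, the library richest in B cell transcripts.

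Type I interferons bind a receptor of the subunits IFNAR1 and IFNAR2, which activates the kinases JAK1 and TYK2. These phosphorylate STAT2, which joins IRF9 in a complex that binds interferon-stimulated response elements in promoters. Type I interferon is made early in Listeria infection and acts on responding CD8 T cells, and its target genes encode RNA sensors, antiviral effectors and feedback inhibitors.

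Library totals were 45288353 to 75586011 counts in WT and 37473484 to 39692359 in KO. Acly (chr11:100476353-100528000, minus strand, mm10 as for all genes named) had 393, 339, 414 and 276 CPM (counts relative to scaled library size) in WT and 262, 62.0 and 209 CPM in KO, with replicates in number order here and throughout. Each KO value was under all WT values, although KO replicate 1 was close to WT replicate 4, and the log2 difference, KO minus WT, was -1.0 ± 0.44 (SE) with an edgeR adjusted p of 0.278. Trbv12, the beta variable segment family of the OT-I receptor, gave 84.5 to 99.2% of all beta variable segment counts in WT, and 46.7, 23.2 and 61.8% in KO replicates 1 to 3. The 95% exact binomial intervals, which cover counting error only, were 45.6 to 47.8%, 22.6 to 23.8% and 61.0 to 62.5% for these KO shares and 84.0 to 84.9% for the lowest WT share. Counts of CD8 T cell markers (9 of 9 measured, with Lck and Cd8b1 the most abundant) summed to 7657 to 10110 CPM in WT, and to 3512, 8232 and 8200 CPM in KO replicates 1 to 3.

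Markers of other blood cells were also higher in some KO libraries. The 16 B cell markers, all measured and led by Ighm and Ighd, summed to 248 to 689 CPM in WT and to 12068, 1205 and 691 CPM in KO replicates 1 to 3. Without Ighm, a choice made after its values were seen, the sum was 16.2 to 24.4 CPM in WT and 8323, 265 and 147 CPM in KO. Neutrophil markers (6 of 10 measured, led by S100a8 and Ngp) summed to 0.307 to 1.34 CPM in WT and to 503, 34.3 and 9.93 CPM in KO. Red cell markers (7 of 7 measured, led by Hbb-bs and Hba-a1) summed to 1.79 to 468 CPM in WT and to 46403, 6475 and 239 CPM in KO. The B cell and neutrophil sums did not overlap between genotypes, with an exact permutation p of 0.0286 for each, the smallest that 35 splits allow, and 0.143 after adjustment over 10 lists. Plasmacytoid dendritic cells, which make much type I interferon, were followed by 6 of 10 markers (led by Ly6d and Runx2) that summed to 79.6 to 223 CPM in WT and to 777, 182 and 124 CPM in KO; Siglech, Klk1, Cox6a2 and Cd300c were not measured. These markers did not move together. Ly6d gave 572, 28.9 and 6.73 CPM of the KO sums and at most 1.58 CPM in WT, while Runx2 was at 65.8 to 83.2 CPM in WT and at 23.5, 29.6 and 57.6 CPM in KO. Without Ly6d the sum was 79.6 to 222 CPM in WT and 205, 153 and 117 CPM in KO, which overlap. Plasma cell markers (3 of 6 measured, Xbp1 and Jchain leading) summed to 99.2 to 109.9 CPM in WT and to 782, 117 and 85.8 CPM in KO. CD4 T cell markers (5 of 6, Cxcr5 and Ctla4 leading) summed to 56.4 to 63.3 CPM in WT and to 407, 43.0 and 83.3 CPM in KO. Cd4 and Cxcr5 were higher in every KO library than in any WT library, while the other CD4 T cell markers overlapped. Cd4 was at 0 to 0.157 CPM in WT and 110, 1.19 and 6.19 CPM in KO. Macrophage and monocyte markers (14 of 15, Ccr2 and Lyz2 leading) summed to 149 to 858 CPM in WT and to 1544, 152 and 1598 CPM in KO. The planned test of this sum gave an exact permutation p of 0.6, and 0.6 after adjustment over 10 lists. Most of the WT sum was Ccr2, at 119 to 822 CPM in WT and 196, 70.8 and 295 CPM in KO. The other 13 summed to 20 to 37.4 CPM in WT and to 1348, 81.1 and 1303 CPM in KO, with no overlap. The mean of log2(CPM + 1) over all 14, an alternative to the sum, was higher in KO by 2.96 (exact permutation p 0.0286, unadjusted). Conventional dendritic cell markers (4 of 7, Itgax and Wdfy4 leading) summed to 165 to 413 CPM in WT and to 399.9, 43.6 and 277 CPM in KO. Without Itgax the other 3 summed to 11.4 to 14.2 CPM in WT and to 282, 9.33 and 23.4 CPM in KO. NK cell markers (6 of 6, Klrk1 and Eomes leading) summed to 248 to 1121 CPM in WT and to 284, 290.0 and 618 CPM in KO. Most of each sum was Klrk1, at 211 to 941 CPM in WT and 201, 186 and 472 CPM in KO. Ncr1 and Klra8 were higher in every KO library than in any WT library, and the other NK cell markers overlapped. Ncr1 was at 0 to 0.224 CPM in WT and 10.8, 1.37 and 0.896 CPM in KO. The sums without Ly6d, Ccr2 or Itgax, and the single NK cell and CD4 T cell markers compared, were chosen after the marker values were seen. No measured marker was at 0 in all WT libraries; of the B cell markers, Ms4a1, Fcer2a, Spib, Blk, Fcrla and Pax5 were each at 0 in 1 or more of them, and Vpreb3 was at 0 in KO replicate 3. KO replicate 1 was the highest of the 7 libraries in the B cell, plasma cell, plasmacytoid dendritic cell, neutrophil, red cell and CD4 T cell sums. What part these cells had in the results below was not tested.

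Interferon response promoters are known for the interferon-stimulated response element, whose core is GAAA, any 2 bases and GAAA again. Promoters of 27 of the 37 genes were matched in RefSeq's GRCm38.p6 annotation, as windows of 300 bases from 250 before to 50 after the start. Of these genes 12 held the core on either strand, 44.4%, against 3.99% of all 27025 genes with a promoter of that length. They were Stat2, Ifih1, Ddx58, Eif2ak2, Oas1a, Oas3, Ifit1, Ifit3, Isg15, Rsad2, Bst2 and Trim30a. A match is a description of these letters and not a measured binding site. The promoters below are examples, and each is the 150 bases just before the start, 5′ to 3′ on the gene's strand. Promoters of Isg20 and Oasl1, also named in the results, held no core and are not printed. Capitals mark the core on either strand, which on the other strand reads TTTC, any 2 bases and TTTC.
Isg15, chr4:156200819-156200968, minus strand: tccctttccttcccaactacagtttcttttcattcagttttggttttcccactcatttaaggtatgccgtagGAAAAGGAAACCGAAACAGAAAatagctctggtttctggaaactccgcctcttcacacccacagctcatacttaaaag
Ifit1, chr19:34640739-34640888, plus strand: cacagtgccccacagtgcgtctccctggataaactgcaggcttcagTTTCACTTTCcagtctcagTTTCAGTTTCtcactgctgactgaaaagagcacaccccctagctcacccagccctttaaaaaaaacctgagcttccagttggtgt
Rsad2, chr12:26456453-26456602, minus strand: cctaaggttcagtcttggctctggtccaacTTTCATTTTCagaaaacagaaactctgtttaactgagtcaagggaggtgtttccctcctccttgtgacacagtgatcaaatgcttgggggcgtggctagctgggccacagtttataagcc
Oas3, chr5:120777660-120777809, minus strand: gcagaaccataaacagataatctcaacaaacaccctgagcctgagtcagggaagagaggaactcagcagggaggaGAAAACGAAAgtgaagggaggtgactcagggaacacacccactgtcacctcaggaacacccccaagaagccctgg
Oasl2, chr5:114896784-114896933, plus strand: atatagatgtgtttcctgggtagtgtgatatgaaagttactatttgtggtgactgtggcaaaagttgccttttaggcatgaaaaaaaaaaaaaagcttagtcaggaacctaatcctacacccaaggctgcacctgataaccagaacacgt

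In the Isg15 promoter 3 overlapping matches began at -78, -72 and -66 from the start, and form the single run of capitals. The Ifit1 promoter held matches from -104 and -85, Rsad2 from -120 and Oas3 from -75. The Oasl2 window held no match. Of the 12 genes with the core, 9 had a higher fitted level in KO, and of the 15 matched genes without it, 9 did. These counts were not tested.

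**Figure D1:**
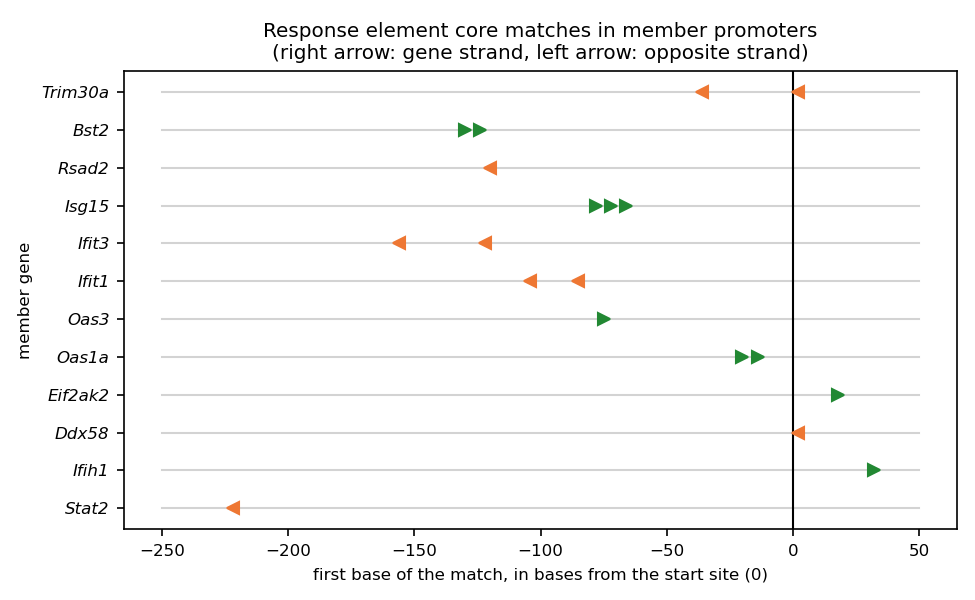
Positions of the response element core (GAAA, any 2 bases, GAAA), on either strand, in bases from the start of transcription for the interferon response genes that hold it, within 250 bases before to 50 after the start. The Isg15 matches lie at -78, -72 and -66, and the Ifit1 matches at -104 and -85.

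In the comparison of all 7 libraries no interferon response gene passed the test. edgeR's quasi-likelihood test with Benjamini-Hochberg adjustment over 16156 genes called 0 of the 37 genes higher and 0 lower in KO at adjusted p under 0.05, and 0% of all genes in either direction. At unadjusted p under 0.05, 7 of the 37 were higher (11.0% of all genes were) and 2 were lower (7.89%). By DESeq2 6 of the 37 were called higher (Oas2, Oasl1, Oasl2, Isg15, Usp18 and Isg20), where 6.77% of all genes were, and Oas3 was called lower, where 3.41% were. By limma voom, with a quality weight for each library, 3 were called higher (Oas2, Oasl2 and Isg20, with 5.32% of all genes) and 0 lower (1.68%). The bias-adjusted edgeR fit called Oas2 and Oasl2 higher (3.07% of all genes) and 0 genes of the 37 lower (0.477%). The fitted log2 difference, KO minus WT, was above 0 for 23 of the 37 and below 0 for 14, with 50% of all genes on each side. Its median was 0.18, against -3.62e-05 over all genes. Leaving out WT replicate 4 took the median of the 37 genes to -0.00101, and leaving out KO replicate 2 took it to 0.0137. Without WT replicate 4 edgeR called Oasl1 higher (0.690% of all genes), and without KO replicate 3 it called Oasl2, Isg15 and Isg20 higher (0.879%). Without both KO replicate 1 and WT replicate 4 it called Oas2 and Oasl1 higher (5.43%) and Oas3 lower (4.2%). Bulk RNA cannot tell apart fewer cells of a type and less RNA per cell.

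Sorted by overlap between libraries, the genes fell into several patterns. Every KO library was above every WT library for Oas2, Oasl1, Oasl2, Isg15 and Usp18, 5 of 37 where 9.46% of all genes did so. Each KO value of Oas3 was under all its WT values, 1 gene of 37 where 9.03% of all genes did so. KO replicates 1 and 2 but not 3 exceeded every WT library for Stat2, Mx2, Rsad2, Cmpk2, Isg20 and Ifi44, 6 genes where 7.54% of all genes did so. The pattern was in KO replicates 1 and 3 but not 2 for Oas1a (4.24%) and in KO replicates 2 and 3 but not 1 for Irf1 and Rtp4 (5.70%). KO replicate 2 was the highest of the 7 libraries for 11 of the 37 (19.0% of all genes), and KO replicate 3 the lowest KO library for 19 (37%). WT replicate 4 was the lowest WT library for 29 of the 37, against 40.8% of all genes. For 17 of the 37 no KO library exceeded every WT library (47.7%).

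**Figure D2:**
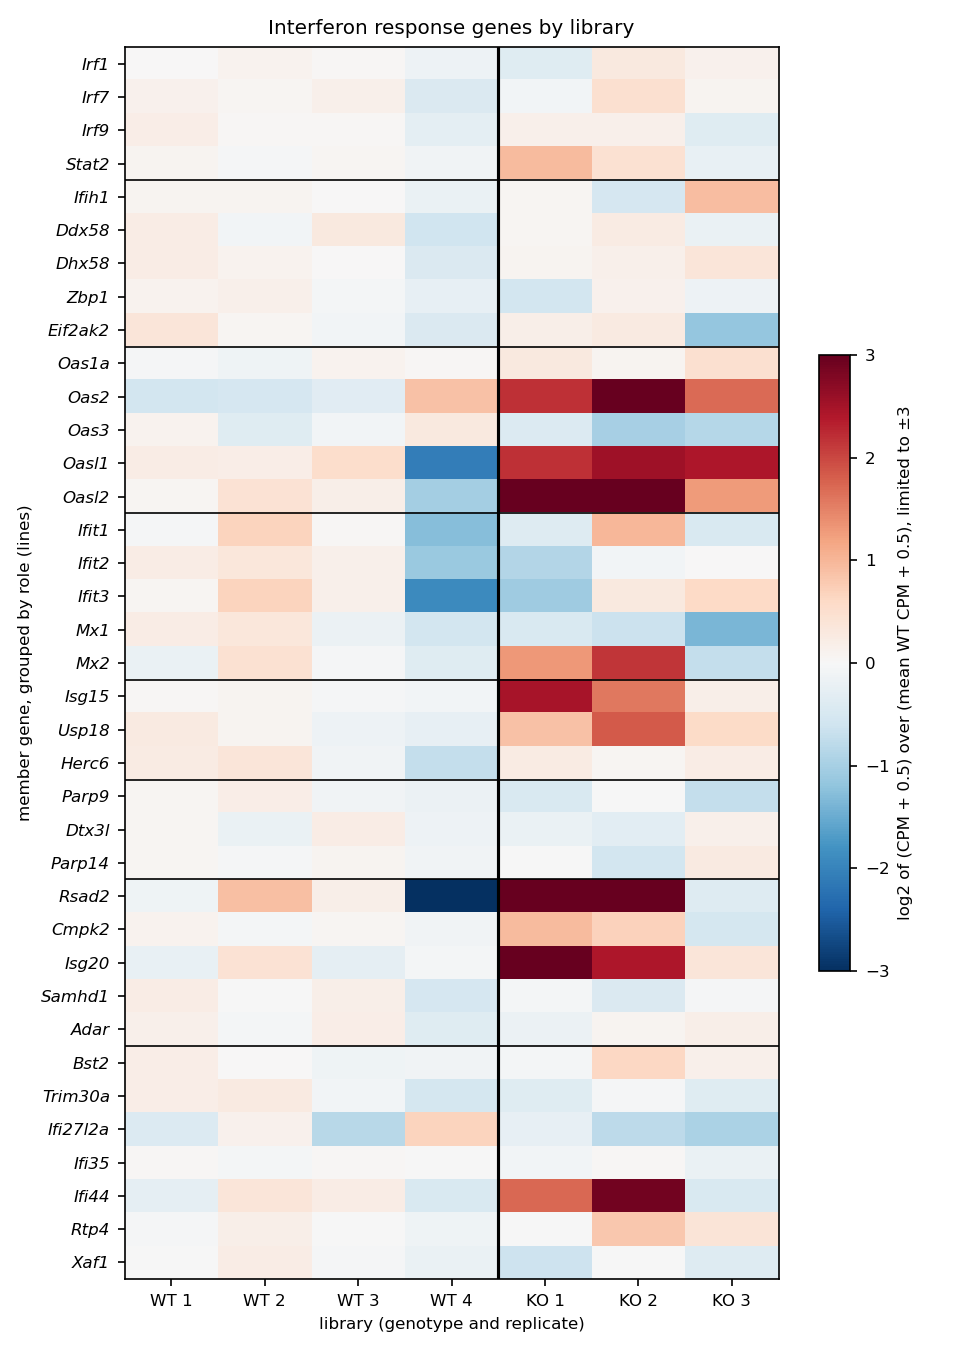
Level of each of the 37 genes in each library as log2 of its CPM over the mean WT CPM, with 0.5 CPM added to both and the colour limited at 3 either way, genes ordered by role. Oasl2, Oas2 and Oasl1 are high in all 3 KO libraries, and Rsad2 and Isg20 are highest in KO replicate 1.

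Among the transcription factors (Irf1, Irf7, Irf9 and Stat2), 3 of 4 had a fitted difference above 0 and none was called by any of the 3 tools. Stat2 (chr10:128270559-128292849, plus strand), a part of the interferon-activated complex with IRF9, had 78.1, 71.3, 76.2 and 68.4 CPM in WT and 143, 102 and 62.8 CPM in KO. Its first and second KO values were above every WT library and the third was below. The log2 difference was 0.48 ± 0.25 (SE), with an edgeR adjusted p of 0.361. Irf7 (chr7:141262706-141266481, minus strand), the factor that amplifies interferon production, was at 111, 105, 113 and 75.0 CPM in WT and 95.5, 142 and 108 CPM in KO. Only KO replicate 2 was above every WT library, and the log2 difference was 0.19 ± 0.20 (SE) (edgeR adjusted p 0.674). For Irf1 (chr11:53770014-53778374, plus strand), a factor that interferon gamma also induces, the WT libraries had 299, 318, 305 and 268 CPM and the KO libraries 229, 363 and 325 CPM. KO replicate 1 was the lowest of the 7 and KO replicates 2 and 3 the highest, with a log2 difference of 0.0405 ± 0.17 (SE) (edgeR adjusted p 0.927). Irf9, the DNA-binding part of the complex, was at 115 to 162 CPM in WT and 109.9 to 158 CPM in KO, which overlap. Exons of Irf1, Irf7 and Irf9 overlap those of other measured genes (Gm17334, Phrf1 and Rnf31), so reads may be shared.

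Sensors of RNA and DNA (Ifih1, Ddx58, Dhx58, Zbp1 and Eif2ak2) all overlapped between genotypes, with 3 of 5 fitted differences above 0 and none called by any of the 3 tools. Ddx58 (chr4:40203773-40239828, minus strand), which encodes the RNA sensor RIG-I, had 158, 127, 167 and 89.0 CPM in WT and 141, 159.9 and 118 CPM in KO. All KO values lay inside the WT range, and the log2 difference was 0.0429 ± 0.23 (SE) (edgeR adjusted p 0.943). Dhx58 (chr11:100694884-100704271, minus strand), which encodes the RIG-I relative LGP2, had 24.4, 22.5, 21.1 and 15.2 CPM in WT and 22.0, 23.1 and 26.7 CPM in KO. Only KO replicate 3 was above every WT library, with a log2 difference of 0.20 ± 0.21 (SE) (edgeR adjusted p 0.673). Zbp1 (chr2:173206612-173218923, minus strand), a sensor of Z-form nucleic acid, had 118, 123, 106 and 92.2 CPM in WT and 75.1, 119.8 and 98.9 CPM in KO. KO replicate 1 was the lowest of the 7 libraries, and the log2 difference was -0.16 ± 0.18 (SE) (edgeR adjusted p 0.695). Ifih1, which encodes the RNA sensor MDA5, was at 19.0 to 23.4 CPM in WT and 42.0 CPM in KO replicate 3, the only KO library above every WT library. Eif2ak2, the kinase PKR, was at 15.8 to 27.6 CPM in WT and 9.26 CPM in KO replicate 3, the lowest of the 7.

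The OAS genes encode enzymes that make the messenger activating RNase L, or relatives of them. Of these 5 genes 4 had values that did not overlap between genotypes, 3 above (9.46% of all genes) and 1 below (9.03%). Oas2, Oasl1 and Oasl2 were higher in every KO library than in any WT library, while Oas3 was lower in every KO library (all 4 called by DESeq2, which called 6.77% of all genes higher and 3.41% lower). Oas2 (chr5:120730333-120749853, minus strand) had 0.759, 0.808, 0.960 and 2.88 CPM in WT and 7.91, 19.9 and 5.50 CPM in KO. KO replicate 2 was the highest and WT replicate 4 stood above the other WT libraries. The KO mean was 11.1 ± 7.70 CPM (SD, n = 3), 8.21-fold the WT mean of 1.35 ± 1.02 CPM (SD, n = 4). The log2 difference was 3.03 ± 0.67 (SE) with an edgeR adjusted p of 0.0844.

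Oasl2 (chr5:114896936-114912234, plus strand), an OAS relative with ubiquitin-like domains, had 1.53, 2.11, 1.69 and 0.458 CPM in WT and 23.7, 25.9 and 4.25 CPM in KO. The first and second KO values were near each other and the third was lower but still above all WT libraries. The KO mean was 18.0 ± 11.9 CPM (SD, n = 3), 12.4-fold the WT mean of 1.45 ± 0.703 CPM (SD, n = 4), with a log2 difference of 3.63 ± 0.73 (SE) and an edgeR adjusted p of 0.0733. Oasl1 (chr5:114923240-114937915, plus strand), known to restrain translation of Irf7, had 2.03, 2.02, 2.65 and 0.0170 CPM in WT, the last from 1 count, and 9.43, 12.3 and 11.3 CPM in KO. Of the 5 OAS genes its KO values had the smallest spread for their mean, 11.0 ± 1.45 CPM (SD, n = 3). Its log2 difference was 2.71 ± 1.06 (SE) (edgeR adjusted p 0.228), and Oasl1 is named here after its values were seen.

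Oas3 (chr5:120753098-120777661, minus strand) had 82.8, 60.2, 72.7 and 94.3 CPM in WT and 58.2, 38.5 and 42.7 CPM in KO. No KO value reached the lowest WT value. The log2 difference was -0.74 ± 0.21 (SE) with an edgeR adjusted p of 0.132, in the opposite direction to its chromosome neighbour Oas2. Oas1a, of the same cluster, was at 7.18 to 8.45 CPM in WT and 8.31 to 11.2 CPM in KO, with the groups overlapping at KO replicate 2.

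**Figure D3:**
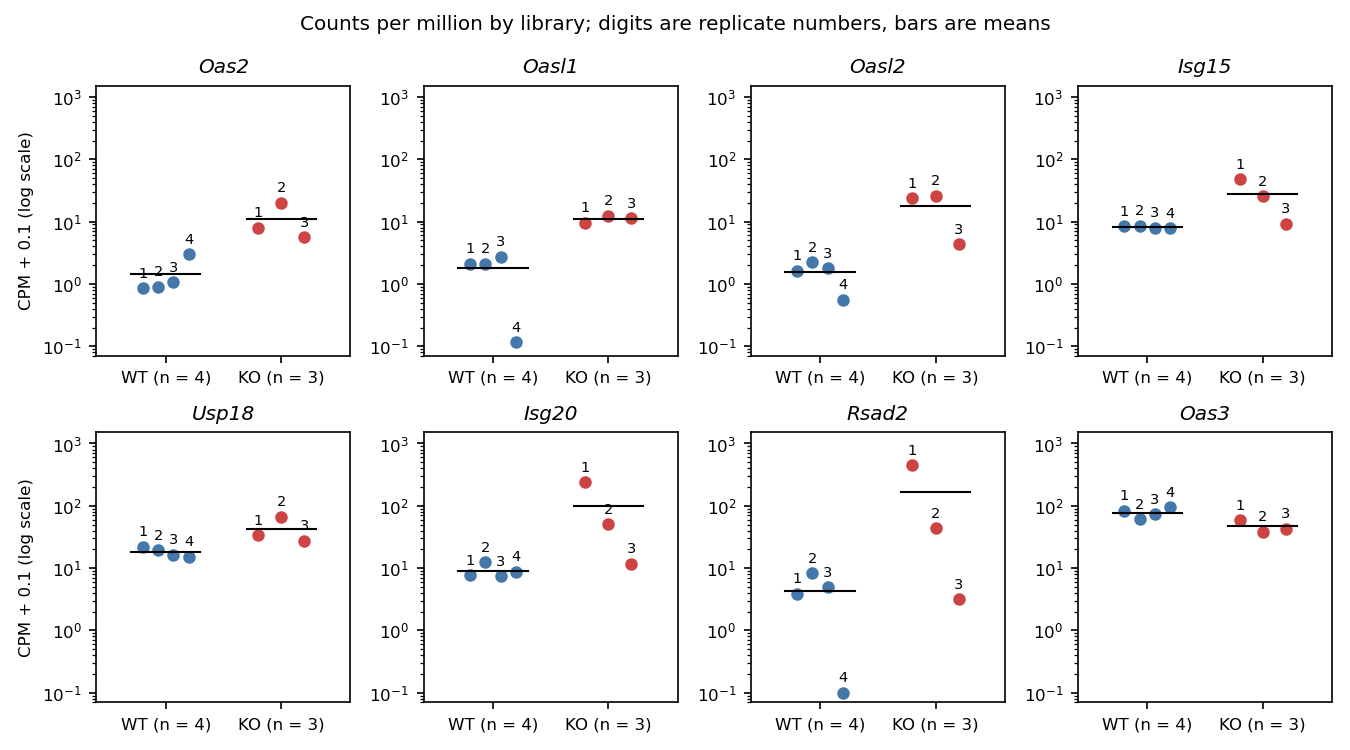
CPM plus 0.1 on a log axis for 8 of the interferon response genes, with 1 numbered point per library (4 WT, 3 KO) and a bar at the mean of each genotype. Oas2, Oasl1, Oasl2, Isg15 and Usp18 do not overlap between genotypes, and Rsad2 spans 3.10 to 450 CPM within KO, with 0 in WT replicate 4.

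The IFIT and Mx genes encode proteins that bind foreign RNA (IFIT) or trap viral nucleoproteins (Mx). The KO libraries did not lie wholly above or below WT for any of these 5 genes, and none was called by any of the 3 tools. Mx1 (chr16:97447035-97462907, minus strand) had 18.9, 20.3, 14.2 and 10.8 CPM in WT and 11.6, 10.1 and 5.94 CPM in KO. KO replicate 3 was the lowest, and KO replicate 1 was above WT replicate 4, so the groups overlapped. Its log2 difference was -0.80 ± 0.34 (SE) (edgeR adjusted p 0.265). Mx2 (chr16:97535308-97560900, plus strand) had 16, 28, 16 and 8 counts in WT and 57, 135 and 0 counts in KO. KO replicate 3 had no count, which allows at most 3 counts or 0.0801 CPM before scaling, and the log2 difference was 2.27 ± 1.32 (SE) (edgeR adjusted p 0.408). Ifit2 (chr19:34550694-34576419, plus strand) had 73.8, 79.1, 69.5 and 29.0 CPM in WT and 33.9, 58.9 and 63.4 CPM in KO. All KO values were inside the WT range, with a log2 difference of -0.27 ± 0.37 (SE) (edgeR adjusted p 0.750). Ifit1 and Ifit3 were at 9.24 to 37 and 6.90 to 43.7 CPM in WT and at 16.7 to 47.0 and 12.9 to 41.7 CPM in KO, and both had WT replicate 4 as the lowest library.

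ISG15 is a ubiquitin-like protein joined to other proteins, HERC6 is its main ligase in mice, and USP18 removes it and also blocks the interferon receptor. All 3 genes had differences above 0, and DESeq2 called Isg15 and Usp18. Isg15 (chr4:156199424-156200818, minus strand) had 8.30, 8.55, 7.91 and 7.70 CPM in WT and 47.5, 25.3 and 9.19 CPM in KO. The WT libraries lay close together, and KO replicate 3 was only just above them. The KO mean was 27.3 ± 19.2 CPM (SD, n = 3), 3.37-fold the WT mean of 8.12 ± 0.382 CPM (SD, n = 4). The log2 difference was 1.75 ± 0.48 (SE) with an edgeR adjusted p of 0.123. Usp18 (chr6:121245906-121270917, plus strand) had 21.9, 19.2, 16.3 and 15.1 CPM in WT and 33.9, 66.4 and 27.3 CPM in KO. KO replicate 2 was the highest, and KO replicate 3 was the lowest KO library but above all WT libraries. The KO mean was 42.5 ± 20.9 CPM (SD, n = 3), 2.35-fold the WT mean of 18.1 ± 3.05 CPM (SD, n = 4), with a log2 difference of 1.23 ± 0.32 (SE) and an edgeR adjusted p of 0.111. Exons of Usp18 overlap Gm44148 on the other strand. Herc6 was at 12.3 to 26.5 CPM in WT and 21.3 to 24.5 CPM in KO, inside the WT range.

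PARP9 and the ubiquitin ligase DTX3L form a complex, and PARP14 is a related ADP-ribosyltransferase. All 3 fitted differences were below 0 and none was called by any of the 3 tools. Parp9 (chr16:35938470-35972605, plus strand) had 112, 124, 99.5 and 94.9 CPM in WT and 77.8, 107 and 65.2 CPM in KO. KO replicate 1 and KO replicate 3 were below every WT library, and the log2 difference was -0.37 ± 0.19 (SE) (edgeR adjusted p 0.364). Dtx3l (chr16:35926511-35939151, minus strand) had 128, 106, 143 and 109.9 CPM in WT and 106, 97.6 and 135 CPM in KO. Its KO values overlapped the WT range, with a log2 difference of -0.11 ± 0.17 (SE) (edgeR adjusted p 0.770). Parp14 was at 62.9 to 71.6 CPM in WT, with KO replicate 2 below and KO replicate 3 above every WT library. Parp9 and Dtx3l overlap each other on opposite strands and Parp14 overlaps Gm49730, so reads may be shared.

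Enzymes of nucleotides and nucleic acids included the genes that differed most by library. Rsad2 (chr12:26442746-26456452, minus strand), which encodes viperin, the maker of a chain-terminating nucleotide, had 3.81, 8.23, 4.80 and 0 CPM in WT and 449.8, 43.3 and 3.10 CPM in KO. KO replicate 1 was at 107-fold and KO replicate 2 at 10.3-fold the WT mean, while KO replicate 3 was at 0.735 of it. WT replicate 4 had no count, which allows at most 3 counts or 0.0506 CPM before scaling. The log2 difference was 5.30 ± 1.79 (SE) with an edgeR adjusted p of 0.177. Isg20 (chr7:78913424-78920396, plus strand), an RNA exonuclease, had 7.67, 12.3, 7.35 and 8.68 CPM in WT and 239, 50.3 and 11.6 CPM in KO. The first and second KO values were above every WT library and the third was inside the WT range. Its log2 difference was 3.48 ± 0.86 (SE) (edgeR adjusted p 0.102), and DESeq2 and voom called it higher. Cmpk2, a mitochondrial nucleotide kinase next to Rsad2 on chromosome 12, was at 21.4 to 24.9 CPM in WT and 44.8, 37.5 and 15.9 CPM in KO, with the same libraries high.

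Samhd1 (chr2:157097533-157135265, minus strand), the enzyme that breaks down deoxynucleotides, had 605, 513, 579 and 363 CPM in WT and 494, 378 and 505 CPM in KO. All KO libraries were inside the WT range, and the log2 difference was -0.16 ± 0.21 (SE) (edgeR adjusted p 0.730). Adar, which edits adenosine to inosine in double-stranded RNA, was at 101 to 149 CPM in WT and 115 to 146 CPM in KO, inside the WT range, and its exons overlap Chrnb2 on the other strand.

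The other 7 genes had 3 differences above 0 and 4 below, and none was called by any of the 3 tools. Rtp4 (chr16:23520291-23614222, plus strand), a receptor-trafficking protein that dampens interferon responses, had 24.8, 28.5, 25.0 and 23.0 CPM in WT and 25.1, 44.7 and 33.5 CPM in KO. KO replicates 2 and 3 were above every WT library, with a log2 difference of 0.44 ± 0.22 (SE) (edgeR adjusted p 0.333). Ifi44 (chr3:151730922-151749960, minus strand) had 5, 17, 16 and 0 counts in WT and 66, 199 and 0 counts in KO. KO replicate 3 and WT replicate 4 were both at 0, and the log2 difference was 3.50 ± 1.69 (SE) (edgeR adjusted p 0.324). Trim30a (chr7:104409025-104465193, minus strand), a regulator of innate signalling, had 142, 149.7, 116 and 85.7 CPM in WT and 96.4, 121 and 96.2 CPM in KO. The KO values were inside the WT range, and the log2 difference was -0.24 ± 0.21 (SE) (edgeR adjusted p 0.603). Bst2, which encodes the virus tether tetherin, was at 44.5 to 55.5 CPM in WT and 75.1 CPM in KO replicate 2, the only KO library above every WT library. Ifi27l2a (57.6 to 165 CPM in WT, 52.9 to 87.3 CPM in KO), Ifi35 (66.0 to 70.1 and 59.6 to 70.0 CPM) and Xaf1 (40.4 to 54.6 and 30.1 to 46.1 CPM) overlapped between genotypes.

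No interferon response gene was high in KO replicate 1 alone. Asked as a KO replicate 1 value above every WT library with KO replicates 2 and 3 at or below the highest WT library, the count was 0 of 37, where 10.1% of all genes met it. With WT replicate 2 left out the count was 1, Herc6. The same pattern for KO replicate 2 alone held for Irf7, Ifit1 and Bst2 (8.54% of all genes), and for KO replicate 3 alone for Ifih1, Dhx58 and Parp14 (6.75%). KO replicate 1 was the highest of the 7 libraries for 5 genes, Stat2, Isg15, Rsad2, Cmpk2 and Isg20, against 20.3% of all genes, and the highest KO library for 9 (38.6%). In each of these 5, KO replicate 2 was also above every WT library.

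Leaving out KO replicate 1 changed the size and not the sign of the fitted differences above 0. All 23 genes above 0 remained above 0, with 15 of them larger and 8 smaller. Those under 50% of their value were Rsad2 (from 5.30 to 2.46), Stat2 (0.48 to 0.16) and Cmpk2 (0.50 to 0.21) on the log2 scale. Isg20 went from 3.48 to 1.78 and Isg15 from 1.75 to 1.09. Oas2 (3.03 to 3.23), Oasl1 (2.71 to 2.81), Usp18 (1.23 to 1.37) and Oasl2 (3.63 to 3.38) moved less as a share of their size. Without that library edgeR called 0 of 37 higher (0.687% of all genes) and 0 lower (0.297%), and 7 were higher (10%) and 2 lower (10.9%) at unadjusted p under 0.05.

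The excess over the WT mean in KO replicates 2 and 3, as a share of that in KO replicate 1, can be set beside the markers. For the B cell sum the shares were 6.88% and 2.48%, for neutrophil markers 6.69% and 1.85%, and for red cell markers 13.7% and 0.236%. The plasmacytoid dendritic cell sum had 9.45% and 0.521%, the plasma cell sum 1.81% and -2.76% and the CD4 T cell sum -4.89% and 6.72%. The macrophage and monocyte sum, Ccr2 included, had -42.9% and 106%, and was highest in KO replicate 3. The conventional dendritic cell sum exceeded the WT mean only in KO replicate 1, and the NK cell sum in no KO library. Rsad2 had 8.77% and -0.25%, Isg20 18.0% and 1.15%, and Isg15 43.8% and 2.72%. Usp18 (305% and 58.1%), Oas2 (283% and 63.3%), Oasl1 (137% and 124%) and Oasl2 (110% and 12.6%) had larger excesses in KO replicate 2 than in KO replicate 1, the library with the most B cell transcripts. The values of KO replicates 1, 2 and 3 fell in that order, as the B cell sum did, for 7 of the 37 genes (20.4% of all genes). The Trbv12 share of beta variable segment counts was lowest in KO replicate 2, at 23.2%, and how it bears on these values was not tested. What part of any excess came from other cells was not tested.

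**Figure D4:**
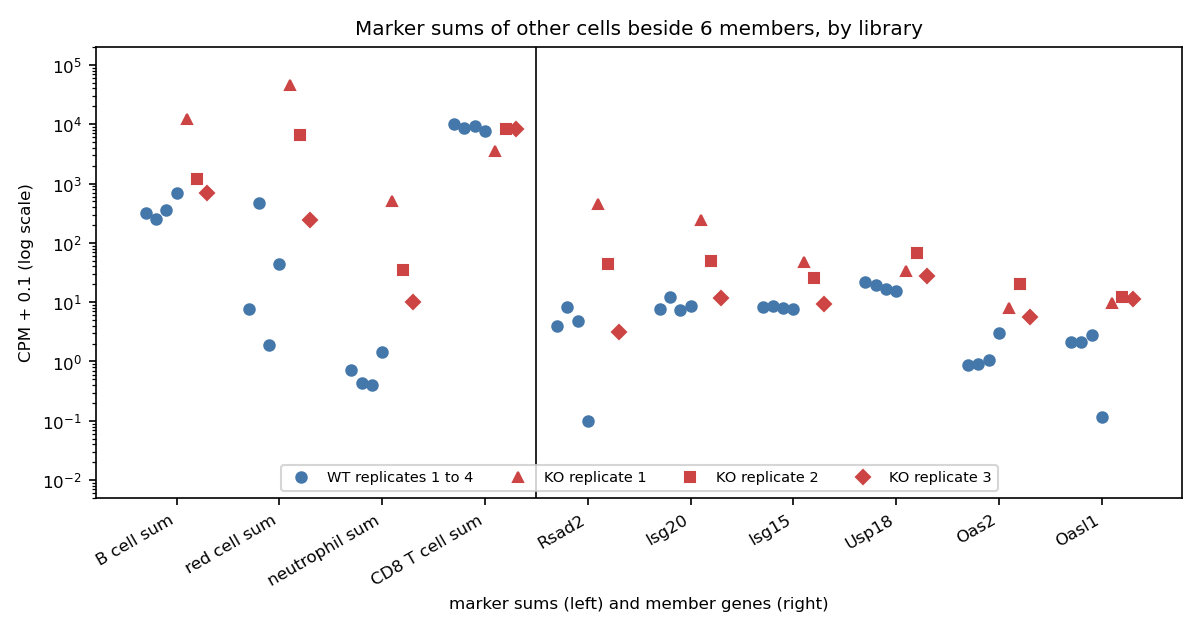
CPM plus 0.1 on a log axis in each of the 7 libraries, WT in blue and KO in red with 1 symbol per KO library, for the B cell, red cell, neutrophil and CD8 T cell marker sums (left) and for 6 of the interferon response genes (right). KO replicate 1 stood highest in the B cell sum, at 12068 CPM, and in Rsad2, Isg20 and Isg15, while KO replicate 2 stood highest in Usp18, Oas2 and Oasl1.

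**Figure D5:**
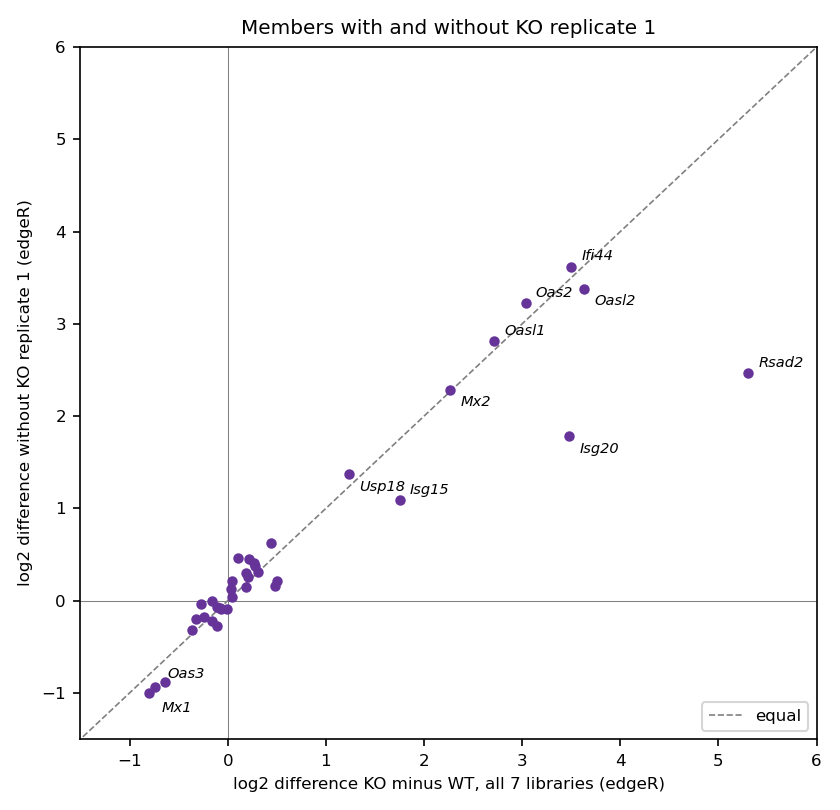
Fitted log2 difference, KO minus WT, of each of the 37 genes with all 7 libraries (horizontal) and without KO replicate 1 (vertical), with the line of equal values. Rsad2 and Isg20 lie below the line at 5.30 and 3.48 on the horizontal axis, and Oas2 and Oasl1 lie close to it.

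Compared per length, as CPM per kilobase of exon (RPKM), Ifi27l2a had the highest WT level at 224 ± 102 (SD, n = 4), then Irf1 at 74.7 ± 5.30, Samhd1 at 56.3 ± 11.9 and Bst2 at 53.9 ± 5.50. The WT ranges of Samhd1 and Bst2 overlapped, while those of Ifi27l2a and Irf1, and of Irf1 and Samhd1, did not. Isg15 at 10.7 ± 0.506 and Usp18 at 6.49 ± 1.09 were in the middle of the order. Low WT levels were those of Rsad2 at 0.971 ± 0.781, Oasl1 at 0.644 ± 0.440, Oas2 at 0.304 ± 0.230 and Oasl2 at 0.227 ± 0.110, whose WT ranges each overlapped the next. Mx2 at 0.0894 ± 0.0596 and Ifi44 at 0.0309 ± 0.0300 were the lowest. In KO, Isg15 was at 36.2 ± 25.4, Isg20 at 53.9 ± 65.3 and Rsad2 at 38.2 ± 57.0 (SD, n = 3).

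Of 107 listed pathway genes outside the 37, 92 were measured, 44 with a difference above 0 and 48 below. edgeR called 0 in each direction, while at unadjusted p under 0.05 there were 14 higher and 8 lower, where 11.0% and 7.89% of all genes were. By DESeq2, 11 were called higher and 4 lower, where 6.77% and 3.41% of all genes were. Every KO library was above every WT library for 11 of the 92 and below for 10, where 9.46% and 9.03% of all genes did so. KO replicate 1 alone was above every WT library for 11 of the 92, where 10.1% of all genes met this pattern, and all 11 were among the 72 further interferon-induced genes.

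The receptor genes overlapped between genotypes. Ifnar1 had 192, 185, 210.2 and 172 CPM in WT and 148, 175 and 199.9 CPM in KO, with a log2 difference of -0.13 ± 0.14 (SE) (edgeR adjusted p 0.690). Ifnar2 had 113, 99.8, 110.2 and 107 CPM in WT and 82.4, 82.9 and 125 CPM in KO, with a log2 difference of -0.15 ± 0.17 (SE) (edgeR adjusted p 0.694). KO replicate 3 was above every WT library for Ifnar2, and KO replicate 1 was the lowest library for both. The kinase genes Jak1 and Tyk2 had log2 differences of -0.41 ± 0.38 (SE) and -0.54 ± 0.20 (SE) (edgeR adjusted p 0.622 and 0.212), with Tyk2 at 238, 239, 261 and 146 CPM in WT and 152, 155 and 149.8 CPM in KO and Jak1 at 3542, 3055, 3698 and 1423 CPM and 1492, 2292 and 2847 CPM. Socs1, a feedback inhibitor of the kinases, had 34.7, 44.9, 49.6 and 41.1 CPM in WT and 52.0, 147 and 94.0 CPM in KO, above every WT library in each KO library, with a log2 difference of 1.20 ± 0.32 (SE) (edgeR adjusted p 0.120); DESeq2 called it higher. Of 6 listed interferon genes only Ifng was measured, which encodes interferon gamma and not a type I interferon. Ifng was at 48.2, 70.1, 86.4 and 30.9 CPM in WT and 6.33, 23.4 and 49.7 CPM in KO.

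The 5 pathway genes outside the 37 with the smallest unadjusted p included genes higher and genes lower in KO. With all libraries none had an edgeR adjusted p under 0.05. Without KO replicate 1 edgeR called Tlr7, Ms4a4c and Ifitm3 higher (adjusted p 0.0414, 0.0460 and 0.0414), as well as Socs1 (0.0450), but neither Phf11b nor Mlkl. With all libraries DESeq2 called Tlr7 and Ms4a4c higher and Phf11b and Mlkl lower, and gave no adjusted p for Ifitm3. Tlr7, a receptor for single-stranded RNA, had 0.0965, 0.135, 0.134 and 0.0170 CPM in WT and 25.1, 4.19 and 16.9 CPM in KO, with a log2 difference of 7.31 ± 0.87 (SE) (edgeR adjusted p 0.0651). Ms4a4c had 35.4, 44.2, 31.9 and 50.5 CPM in WT and 161, 199 and 105 CPM in KO, with a log2 difference of 1.93 ± 0.25 (SE) (edgeR adjusted p 0.0651). Both were higher in every KO library than in any WT library, as was Ifitm3, which blocks virus entry, at 0.400, 0.651, 0.422 and 0.576 CPM in WT and 51.7, 4.63 and 4.12 CPM in KO (log2 difference 5.29 ± 0.99 (SE), edgeR adjusted p 0.0670). Phf11b had 137, 147, 113 and 146 CPM in WT and 67.7, 54.8 and 80.0 CPM in KO, with a log2 difference of -1.01 ± 0.17 (SE) (edgeR adjusted p 0.0651). Mlkl, the effector of necroptosis, had 8.50, 9.13, 9.22 and 12.6 CPM in WT and 4.46, 3.82 and 3.02 CPM in KO, with a log2 difference of -1.39 ± 0.30 (SE) (edgeR adjusted p 0.0804). Both Phf11b and Mlkl were lower in every KO library than in any WT library.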

How the data were processed

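RNA was sequenced from 7 libraries, 4 WT and 3 KO, grouped by the genotype label. Reads had been trimmed (Trim Galore 0.6.0) and mapped to mm10 (STAR 2.7.8), and DESeq2 is listed too, per the submitters' processing notes. The gene annotation is not given in the sources used here, nor are the counting, the strand setting or a filter, so reads of overlapping genes on opposite strands may be shared. The authors deposited raw counts of 16156 genes and a second table with their log2 CPM. Those deposited log2 values were within 4.99e-09 of ones recomputed with TMM scaling and a prior count of 2.

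CPM was computed here from the deposited counts with TMM scaling. Genotypes were compared in R 4.3.3 with edgeR 4.0.16 (quasi-likelihood, genotype as the only term, Benjamini-Hochberg adjustment over all genes, threshold 0.05, and 0 genes removed by filterByExpr). The fit was also run on simulated data, and the outcome is not given here. Standard errors of log2 differences came from that fit. DESeq2 1.42.0, limma 3.58.1 (voom with quality weights), other scalings, filters, a replicate block and leaving out each library were alternatives. Before scaling, 3 counts equal 0.0397 to 0.0801 CPM. Coordinates and exon lengths came from GENCODE M21, in which 16141 identifiers were found, and promoters from RefSeq (GRCm38.p6). Marker sums were compared as log2(sum + 1) by a 2-sided exact permutation test.

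In each role group the values of the 2 genes with the smallest unadjusted p and of the gene with the highest mean CPM were given in full. Ifnar1, Ifnar2, Jak1, Tyk2, Socs1 and the 5 other pathway genes with the smallest p were named too, and further genes were chosen after their values were seen. Another gene that the rule names is not reported here. The 37 genes, the lists and the alternatives were chosen with earlier results of these data known.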

Additional observations from a re-analysis of the deposited data

Results flagged for a closer look

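In 4 of 59 genes and marker sums tested, 1 WT library lay apart from the other 3, with its gap to the nearest library, as a share of the WT range, above Dixon's critical value for 4 samples; chance flags about 1 in 20 groups. Oas2 in WT replicate 4, at 2.88 CPM against 0.759 to 0.960 CPM, had a gap of 0.905 of the range. The plasmacytoid dendritic cell marker sum in WT replicate 4, at 223 CPM against 79.6 to 96.1 CPM, had a gap of 0.885; Ccr9 alone was at 134 CPM there against 0.853 to 1.75 CPM, and without it WT replicate 4, at 89.0 CPM, lay inside the range of the other WT libraries, 77.8 to 94.9 CPM. The conventional dendritic cell marker sum in WT replicate 4, at 165 CPM against 384 to 413 CPM, had a gap of 0.883; this was Itgax, at 151 CPM against 371 to 401 CPM, and the other 3 markers summed to 14.2 CPM there against 11.4 to 12.6 CPM. The sums without Ccr9 and without Itgax were chosen after the marker values were seen. The red cell marker sum in WT replicate 2, at 468 CPM against 1.79 to 44.2 CPM, had a gap of 0.909. Of the 37 interferon response genes only Oas2 met this limit. The KO group, with 3 libraries, was not tested.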

How the results depend on the processing

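Over all genes, edgeR's 0 calls higher and 0 lower became 1036 and 525 with DESeq2, 860 and 272 with voom, 496 and 77 with the bias-adjusted edgeR fit and 864 and 668 without KO replicate 1 and WT replicate 4. Leaving out 1 library at a time gave 0 to 142 higher and 0 to 48 lower. Of the 37 genes, DESeq2 called 6 higher and 1 lower, voom 3 higher, the bias-adjusted fit 2 higher (Oas2 and Oasl2), and the fit without KO replicate 1 and WT replicate 4 called 2 higher (Oas2 and Oasl1) and 1 lower (Oas3); leaving out 1 library gave 0 to 3 higher, with Oasl2, Isg15 and Isg20 called without KO replicate 3 and Oasl1 without WT replicate 4. In all, 19 calls were made in 592 fits of a member, which reuse the same 7 libraries and are not independent. By setting, 0 to 6.77% of all genes were called higher and 0 to 4.2% lower. For the 37 genes the median log2 difference, 0.18, was 0.0164 with voom, and -0.00101 to 0.24 when 1 library was left out, lowest without WT replicate 4. The count of genes high in KO replicate 1 alone was 0 to 1 over WT libraries left out and 0 under both other scalings.

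The labels name no pairing of the samples by replicate number. Deviations of same-numbered libraries correlated at -0.18, -0.0261 and 0.20 for numbers 1 to 3, and only KO replicate 3 correlated best with its own number. With so few libraries these correlations cannot settle whether same-numbered libraries shared a batch. With the replicate block the calls were 0 and 0 over all genes and over the 37, and the median was -0.0317.

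The sign changed in at least 1 setting for 10 of the 37 genes, and in 34 of 592 fits. With the replicate block Irf1 was at -0.0317, Ddx58 at -0.11, Ifit1 at -0.18, Ifit3 at -0.35 and Adar at -0.0699. With voom Ddx58 was at -0.14, Ifit3 at -0.0684, Herc6 at -0.0305 and Adar at -0.0867. Irf9 was at 0.0190 with median-of-ratios scaling and with DESeq2 and at 0.0539 with upper-quartile scaling. Without KO replicate 1 and WT replicate 4, Ddx58 was at -0.0987 and Herc6 at -0.0133, while Irf9, at -0.16, and Eif2ak2, at -0.38, kept their sign. Leaving out 1 library gave ranges of -0.10 to 0.21 for Irf1, -0.0890 to 0.15 for Irf9, -0.20 to 0.56 for Ifih1, -0.11 to 0.16 for Ddx58, -0.36 to 0.23 for Eif2ak2, -0.44 to 0.54 for Ifit1, -0.23 to 0.47 for Ifit3, 0.00448 to 0.33 for Herc6, -0.26 to 0.13 for Parp14 and -0.0617 to 0.13 for Adar. Marker sums changed sign for plasma cells (-0.0600 to 1.53 over libraries left out), conventional dendritic cells (-1.53 to 0.0554, 0.91 as a mean of logs and 1.62 without Itgax), NK cells (0.28 as a mean of logs) and CD4 T cells (-0.000147 to 1.61). The cause of these changes was not tested. With 3 and 4 libraries, genes at few counts, such as Mx2 and Ifi44, were the least precise.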

Other observations

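Genes of the enzymes that attach ISG15 were set beside Isg15, after their values were seen. Ube2l6, which encodes the conjugating enzyme of ISG15, had 5.35, 12.6, 3.82 and 3.41 CPM in WT and 735, 61.3 and 10.9 CPM in KO. KO replicates 1 and 2 were above every WT library and KO replicate 3 was inside the WT range, the order seen for Rsad2 and Isg20. Its log2 difference was 5.42 ± 1.34 (SE), and 2.52 without KO replicate 1. Uba7, which encodes the activating enzyme, had 193, 185, 188 and 89.2 CPM in WT and 249.9, 275 and 188 CPM in KO, also with KO replicates 1 and 2 above every WT library. Socs3, a feedback inhibitor of cytokine receptors, had 49.4, 55.5, 101 and 53.5 CPM in WT and 112, 285 and 200.0 CPM in KO, with every KO library above every WT library (log2 difference 1.62 ± 0.36 (SE)).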
